A study of Mus musculus with 800 samples.

Results

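The 33 genes described here encode proteins that copy DNA or act in S phase. They were followed, out of 49585 gene rows, in single cells of the embryonic mouse retina. All 33 were taken by symbol and each had 1 row in the count table. They were read in 8 groups by role: licensing of replication origins, origin firing, polymerase and primase, the clamp with its loader and single-strand binding, Okazaki fragment joining, nucleotide supply, chromatin with DNA methylation and histone supply, and repair with licensing turnover. The donors were Sert-Cre mouse embryos of the C57BL/6 strain at stage E15.5, and the labels call 400 cells Tomato+ and 400 cells Tomato-. In Sert-Cre mice the serotonin transporter gene Slc6a4 drives Cre recombinase, and Tomato is a red fluorescent reporter. In the embryonic mouse retina this transporter is known from ganglion cells whose axons stay on their own side of the brain. The labels give no further allele, and both groups share strain, stage and tissue. The protocol in the labels used 30 retinas, which papain separated into single cells before a flow cytometry sort whose gate is not described.

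As background, replication origins are licensed in G1 phase, when Cdc6 and Cdt1 load the Mcm2 to Mcm7 helicase onto DNA. Cdc45 and the GINS proteins activate the helicase in S phase, and polymerases, the sliding clamp and ligase copy and join the strands. Many of these genes are targets of E2F transcription factors, and their RNA is known to be abundant in cycling cells and low after cell cycle exit. At this stage the mouse retina holds dividing progenitors, which express the growth factor gene Fgf15, and newborn neurons. Atoh7 encodes a transcription factor needed to form ganglion cells, and Pou4f2 encodes one that marks them as they differentiate. Top2a encodes DNA topoisomerase II alpha, whose RNA is known to be most abundant from late S phase to mitosis.

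Cells in which mitochondrial genes took over 20% of the counts were left out, 73 of the 400 Tomato+ and 38 of the 400 Tomato- cells. The kept Tomato+ cells had a median of 271789 counts (9653 to 644293) and the kept Tomato- cells one of 243410 counts (16826 to 689788). A title number is the running number in the sample titles, 1 to 10 for Tomato+ and 11 to 20 for Tomato-, and holds 24 to 38 kept Tomato+ cells or 35 to 39 kept Tomato- cells. The labels name no animal for any cell, so each group is 1 pool without replicates. No p-value was computed, and the spread over title numbers describes these pools only. Levels were computed from counts summed over the cells of a class and are given per 1000000 counts of the class (CPM), with exact Poisson 95% intervals. Shares of cells have exact Clopper-Pearson 95% intervals. For a share of 0 the limit given is that of 3 cells in the total. All of these cover counting error only. Log2 ratios were taken after adding 10 CPM, and a gene was counted as higher or lower from a 2-fold ratio on that scale among genes with at least 5 CPM over the classes compared.

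Some promoters of the members hold letters that E2F factors are known to bind. Of the 33 members, 28 matched a RefSeq promoter table (build GRCm38.p6) of 300-base windows around gene starts, with 33 promoters. The E2F-type letters searched were TTTCCCGC, TTTCGCGC, TTTGCCGC and TTTGGCGC on both strands. They were found in 13 of the 28 members, or 39.4% of the 33 promoters, beside 2.26% of all 32851 promoters in the table. Of the 7 licensing members with a window, 6 held them (Cdc6, Cdt1, Mcm3, Mcm5, Mcm6 and Mcm7). Of the other 21 members, 7 held them (Pola1, Rfc3, Lig1, Uhrf1, Hells, Cdca7 and Dtl). CCAAT, searched on both strands, was in 57.6% of the members' promoters and in 37.4% of all promoters. The promoters of Mcm6 and Mcm5, subunits of the helicase, are shown beside those of Rrm2, a subunit of ribonucleotide reductase, and Cdc45, a helicase activator, because these pairs, chosen after their values were seen, differed in their relation to Top2a. Each is written 5′ to 3′ on the gene's strand, and capitals mark E2F-type letters or CCAAT on either strand, where hits on both strands can overlap.
Mcm6: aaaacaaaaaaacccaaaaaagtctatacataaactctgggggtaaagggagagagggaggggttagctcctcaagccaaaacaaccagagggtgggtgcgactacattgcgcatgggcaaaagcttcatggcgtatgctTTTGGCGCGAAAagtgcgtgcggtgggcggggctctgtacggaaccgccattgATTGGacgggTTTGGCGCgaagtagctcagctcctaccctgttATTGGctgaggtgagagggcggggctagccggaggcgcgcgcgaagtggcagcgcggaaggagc
Mcm5: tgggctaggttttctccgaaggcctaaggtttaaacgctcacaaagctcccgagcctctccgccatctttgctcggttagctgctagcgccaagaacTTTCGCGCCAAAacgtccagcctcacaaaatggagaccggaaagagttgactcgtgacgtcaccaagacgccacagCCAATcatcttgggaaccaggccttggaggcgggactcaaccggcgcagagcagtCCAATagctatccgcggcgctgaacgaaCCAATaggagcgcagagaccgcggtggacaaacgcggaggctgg
Rrm2: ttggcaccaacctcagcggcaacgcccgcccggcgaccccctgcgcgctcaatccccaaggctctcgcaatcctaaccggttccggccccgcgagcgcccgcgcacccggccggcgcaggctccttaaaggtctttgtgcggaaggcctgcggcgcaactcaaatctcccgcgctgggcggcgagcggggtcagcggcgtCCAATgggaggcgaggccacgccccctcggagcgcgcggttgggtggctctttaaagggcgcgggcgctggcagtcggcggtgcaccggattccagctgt
Cdc45: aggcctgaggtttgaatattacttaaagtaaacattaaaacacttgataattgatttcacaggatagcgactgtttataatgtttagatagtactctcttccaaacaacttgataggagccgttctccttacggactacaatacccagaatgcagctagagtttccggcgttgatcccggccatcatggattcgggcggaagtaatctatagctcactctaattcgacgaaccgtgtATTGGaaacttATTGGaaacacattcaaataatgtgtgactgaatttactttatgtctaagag
The windows are chr1:128359656-128359955 on the minus strand for Mcm6, chr8:75109259-75109558 on the plus strand for Mcm5, chr12:24708004-24708303 on the plus strand for Rrm2 and chr16:18811923-18812222 on the minus strand for Cdc45. Mcm6 held 3 E2F-type hits and Mcm5 held 2, while Rrm2 and Cdc45 held 0 in these windows and 1 and 2 CCAAT hits. Over all members with a window, E2F-type letters were in 1 of the 7 that were highest in cells rich in Top2a (Rfc3) and in 11 of the 20 that were highest at a middle level of Top2a. Those 11 include the 6 licensing members named above, so this split overlaps that by role. The Top2a grouping was taken from these same data, and its relation to the letters was not tested. A match of letters is a description and shows no binding.

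The replication genes were lower in Tomato+ than in Tomato- cells as a group. Their summed level was 638.8 CPM (interval 633.5 to 644.2) in the Tomato+ pool. It was 2921 CPM (2910 to 2932) in the Tomato- pool, which gives a log2 ratio of -2.18. By title number the sum ran from 459 to 958 CPM in Tomato+ cells, with a median of 625 CPM, and from 2262 to 4056 CPM in Tomato- cells, with a median of 2885 CPM. The title numbers of the labels did not overlap. All 33 members were below 0 on the log2 scale, and 30 of the 32 tested were at least 2-fold lower in Tomato+ cells, beside 6.92% of all 10878 tested genes. None was 2-fold higher, beside 2.95% of those genes. With 50 CPM added in place of 10, the members that were lower numbered 16. The share of all tested genes was not recomputed for this or any other changed setting. The members' median log2 ratio was -1.69, beside -0.08 over all tested genes. A single cell of the Tomato+ group had a median sum of 490.8 CPM and one of the Tomato- group 1650 CPM. Markers of other cell states moved with the label: the summed level of 21 G2 and mitosis genes was 132.4 CPM in the Tomato+ and 4796 CPM in the Tomato- pool, and that of 10 ganglion cell markers was 19836 and 8718 CPM. Progenitor markers summed to 800 CPM in the Tomato+ and 3647 CPM in the Tomato- pool. Erythroid markers stood at 1715 CPM in the Tomato+ pool, with title numbers up to 9304 CPM, and at 4.08 CPM in the Tomato- pool, while microglia markers stood at 7.60 and 173.6 CPM. Without the cells that held at least 2 microglia, endothelial or erythroid markers the log2 ratio of the sum was -2.21 and 30 members were again lower. The part of the mitosis, ganglion cell and progenitor genes in the difference was not tested.

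**Figure D1:**
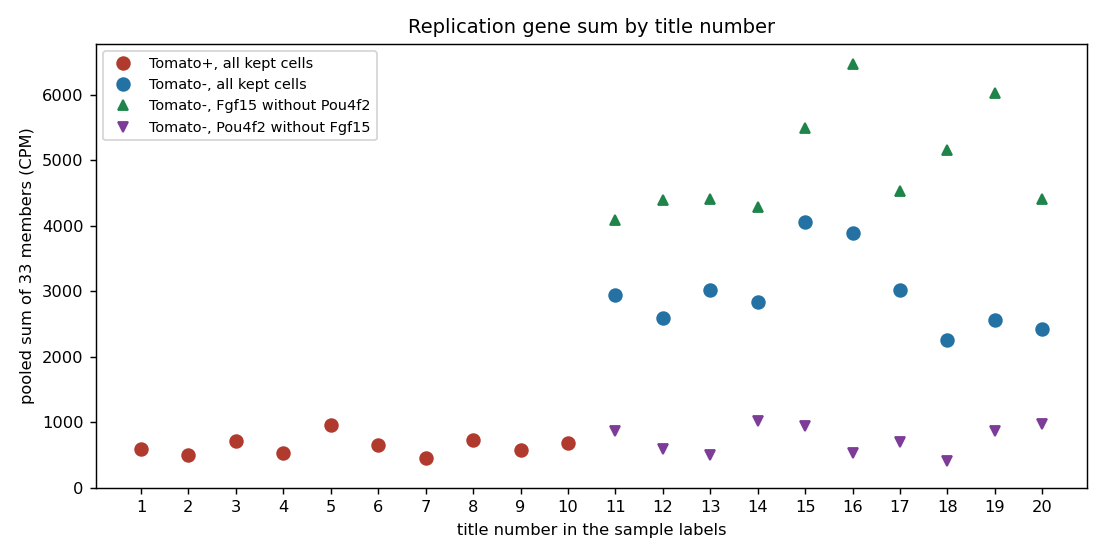
Pooled sum of the 33 members in CPM (vertical axis, from 0) for each title number (horizontal axis), for all kept cells of each label and for 2 classes of Tomato- cells. Each point is 1 title number; Tomato+ points lie between 459 and 958 CPM and Tomato- points between 2262 and 4056 CPM, with the Fgf15 and Pou4f2 classes on either side of the latter.

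Each of the 8 licensing members was at least 2-fold lower in Tomato+ cells. Mcm6 stood at 35.7 CPM in Tomato+ cells, with title numbers from 2.78 to 111.9 CPM and a median of 39.2 CPM. In Tomato- cells Mcm6 stood at 190.7 CPM, with title numbers from 132.8 to 338.8 CPM and a median of 181.4 CPM. Mcm5 was at 8.38 CPM (0.17 to 17.8, median 7.54) in the Tomato+ and at 82.4 CPM (26.3 to 126.8, median 80.6) in the Tomato- pool. The title numbers of the labels did not overlap for either gene, whose log2 ratios were -2.14 and -2.33. On that scale Mcm3 had the largest ratio of the role, with 1.73 CPM in the Tomato+ and 61.1 CPM in the Tomato- pool (log2 ratio -2.60). All 4 origin firing members and all 4 polymerase and primase members were also at least 2-fold lower. The log2 ratio was -1.09 for the GINS subunit Gins1 and -1.81 for Mcm10, which helps to activate the helicase. It was -1.96 for the primase subunit Prim1 and -1.26 for Pola1, the catalytic subunit of polymerase alpha. Title numbers overlapped for Gins1, Mcm10 and Pola1 and did not for Prim1.

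Of the clamp and its helpers, 4 of 5 were at least 2-fold lower. Pcna, the sliding clamp, was at 22.1 CPM (title numbers 4.22 to 56.5, median 17.3) in the Tomato+ pool and 90.3 CPM (69.4 to 134.2, median 84.8) in the Tomato- pool, with no overlap. Cells with at least 5 Pcna counts made up 22.6% of Tomato+ and 45.9% of Tomato- cells. The clamp loader subunit Rfc2 was at 84.9 and 125.98 CPM, a log2 ratio of -0.52, and 39.1% of Tomato+ and 35.6% of Tomato- cells had at least 5 counts. Rpa2, a subunit of the single-strand binding complex, had a log2 ratio of -2.12. Lig1, the ligase that joins Okazaki fragments, was at 74.2 CPM in the Tomato+ and 257.9 CPM in the Tomato- pool (log2 ratio -1.67), with overlapping title numbers. Fen1, the flap nuclease of the same step, was at 0.87 and 6.00 CPM and was not tested.

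Nucleotide supply held the member with the largest ratio on the log2(CPM + 10) scale. Rrm2, the regulatory subunit of ribonucleotide reductase, stood at 5.33 CPM (title numbers 0.10 to 41.96, median 2.64) in Tomato+ cells. In Tomato- cells it stood at 126.3 CPM (53.9 to 288.4, median 95.96), a log2 ratio of -3.15 with no overlap. Rrm1, the catalytic subunit, was at 65.8 and 231.09 CPM (log2 ratio -1.67). Dtl, which marks Cdt1 for destruction in S phase, was at 2.50 CPM in the Tomato+ and 100.6 CPM in the Tomato- pool and had the same rounded ratio as Rrm2. Without the added 10 CPM other members were lower by a larger fold than Rrm2 (23.7-fold), among them Dtl (40.2-fold) and Mcm3 (35.4-fold). Cdc6 and Ung, with few Tomato+ counts, fell further than these. Cdc6 made up 1.22% of the sum in the Tomato- and 0.022% in the Tomato+ pool, and Ung 0.65% and 0.0091%. Hells and Cdca7, which act together in chromatin remodelling, had log2 ratios of -2.61 and -2.73. Slbp, which binds the end of histone messages, had the smallest ratio of the 33 on this scale, at 23.4 and 35.3 CPM (log2 ratio -0.44), while without the added 10 CPM Rfc2 had a smaller fold (1.48) than Slbp (1.51). Ung, a uracil-DNA glycosylase, reached 5 counts in 0 of the kept Tomato+ cells, which allows a share of up to 0.917% by the limit of 3 cells, and in 6.35% of Tomato- cells. After each cell was thinned to 94783 counts, 32 of 33 members had the larger share of cells with a count in Tomato- cells. How many of all genes did so was not counted, so no share stands beside this number. The exception among the members was Rfc2, at 46.9% of Tomato+ and 45.7% of Tomato- cells.

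Within Tomato- cells the sum followed the marker genes. A cell was called positive for a marker at 5 counts or more. Cells positive for Fgf15 only, 40.6% of the kept Tomato- cells, had a median sum of 3749 CPM and quartiles of 1658 and 7288 CPM. The 61 cells positive for Pou4f2 only had a median of 656 CPM and quartiles of 343.1 and 902 CPM. Cells positive for Fgf15 and Atoh7 (22 cells) had a median of 3645 CPM and those positive for Atoh7 only (15 cells) one of 3207 CPM. The 23 cells positive for both Fgf15 and Pou4f2 had a median of 876 CPM and a range up to 15152 CPM. No doublet caller was run, so such double-positive cells may hold 2 cells. The 85 cells positive for none had a median of 793 CPM. Sums of at least 2000 CPM, a limit chosen after the values were seen, were found in 70.7% (62.7 to 77.95) of Fgf15-only cells and in 3.28% (0.40 to 11.3) of Pou4f2-only cells. Of the kept Tomato- cells, 56 lay between 1500 and 3000 CPM. The 33 members are sparse in a single cell: Fgf15-only cells had a median of 9 members at 5 counts or more and a highest value of 28, and Pou4f2-only cells a median of 3 and a highest value of 13.

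**Figure D2:**
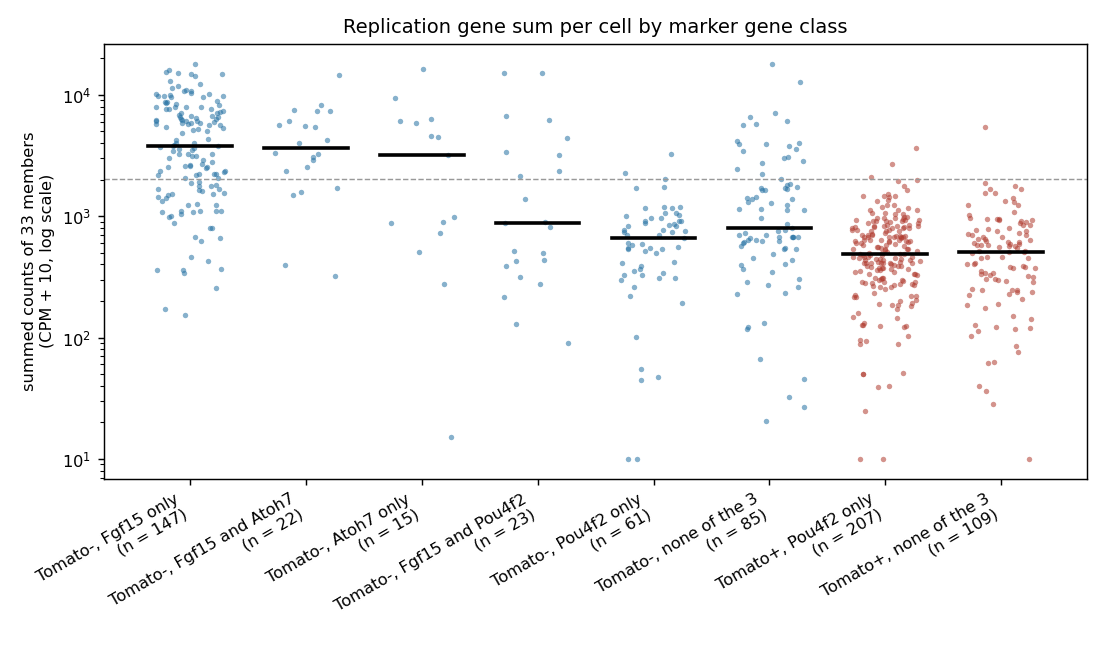
Sum of the 33 members in each cell (vertical axis, CPM + 10, log scale) by marker gene class and label (horizontal axis). Points are cells, black lines are medians and the dashed line is 2000 CPM; Fgf15-positive Tomato- classes without Pou4f2 have medians of 3749 and 3645 CPM, and the Tomato+ classes have medians of 481 and 497 CPM.

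The contrast of Fgf15-positive cells without Pou4f2 (46.7% of the kept Tomato- cells) and Pou4f2-positive cells without Fgf15 (66 cells) was the largest among the Tomato- classes compared. The summed level was 4893 CPM (4871 to 4914) and 740.2 CPM (728.7 to 751.8), a log2 ratio of 2.71. Within title numbers the ratio was above 0 in 10 of 10 and ran from 2.07 to 3.61, with a standard deviation of 0.55. With positivity set at 1 count the ratio was 2.14. Of the 33 members, 29 were at least 2-fold higher in the Fgf15 cells, beside 13.5% of 10875 tested genes, and 0 were lower, beside 10.5%. The median log2 ratio of the members was 2.46. The median total count was 229118 in the Fgf15 cells and 326210 in the Pou4f2 cells. Ganglion cell markers summed to 2794 CPM in the first class and 16510 CPM in the second, and markers of progenitors to 6498 and 1159 CPM. The first list includes Pou4f2 and the second Fgf15, so the choice of cells fixes these differences in part.

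All 8 licensing members were at least 2-fold higher in the Fgf15 cells. Mcm6 stood at 342.05 CPM in Fgf15 and 29.5 CPM in Pou4f2 cells, with 47.3% and 10.6% of cells at 5 counts or more. Its log2 ratio was 3.16, and leaving out each title number in turn gave 2.99 to 3.51. Mcm5 stood at 151.3 and 19.4 CPM (log2 ratio 2.46). Cdc6 reached 5 counts in 13.6% of Fgf15 cells and 0 of 66 Pou4f2 cells, which allows a share of up to 4.55% by the limit of 3 cells. All 4 origin firing members were higher, among them Gins2 at 50.8 and 0.66 CPM (log2 ratio 2.51) and Gins1 at 62.4 and 11.6 CPM (1.74). Of polymerase and primase genes, 3 of 4 were higher, led by Pola1 at 199.5 and 16.4 CPM (2.99). The exception was Pola2, a subunit of the same complex, at 37.2 and 15.2 CPM (0.90).

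Of the clamp genes, 3 of 5 were at least 2-fold higher. Rfc4 was at 240 CPM in Fgf15 and 23.1 CPM in Pou4f2 cells, a log2 ratio of 2.92. Rfc2 and Rfc3, subunits of the same loader, had ratios of 0.55 and 0.88, and 39.4% of Pou4f2 cells held at least 5 counts of Rfc2. Pcna was at 142.4 and 38.4 CPM (log2 ratio 1.66), and 33.3% of Pou4f2 cells held at least 5 counts. Lig1 was at 437 and 50.1 CPM (2.89). Rrm2 was at 199.4 CPM in Fgf15 and 2.58 CPM in Pou4f2 cells, a ratio of 4.06, which was 2.20 with positivity at 20 counts and 2.42 after thinning. Rrm1 was at 344.7 and 102.9 CPM (1.65), and 39.4% of Pou4f2 cells held at least 5 counts of it. Hells was at 274.3 and 25.5 CPM (3.0) and Dtl at 190 and 2.58 CPM (3.99). Ung was at 37.6 CPM in Fgf15 cells and had 0 counts over the Pou4f2 cells. Against a floor of 3 counts over the class the fold was 267.3. That fold treats counts as independent and sets no limit for cells. Ung reached 5 counts in 11.2% of Fgf15 cells and in 0 of 66 Pou4f2 cells, which allows a share of up to 4.55% by the limit of 3 cells. With Ung at that floor the members' median log2 ratio stayed at 2.46.

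**Figure D3:**
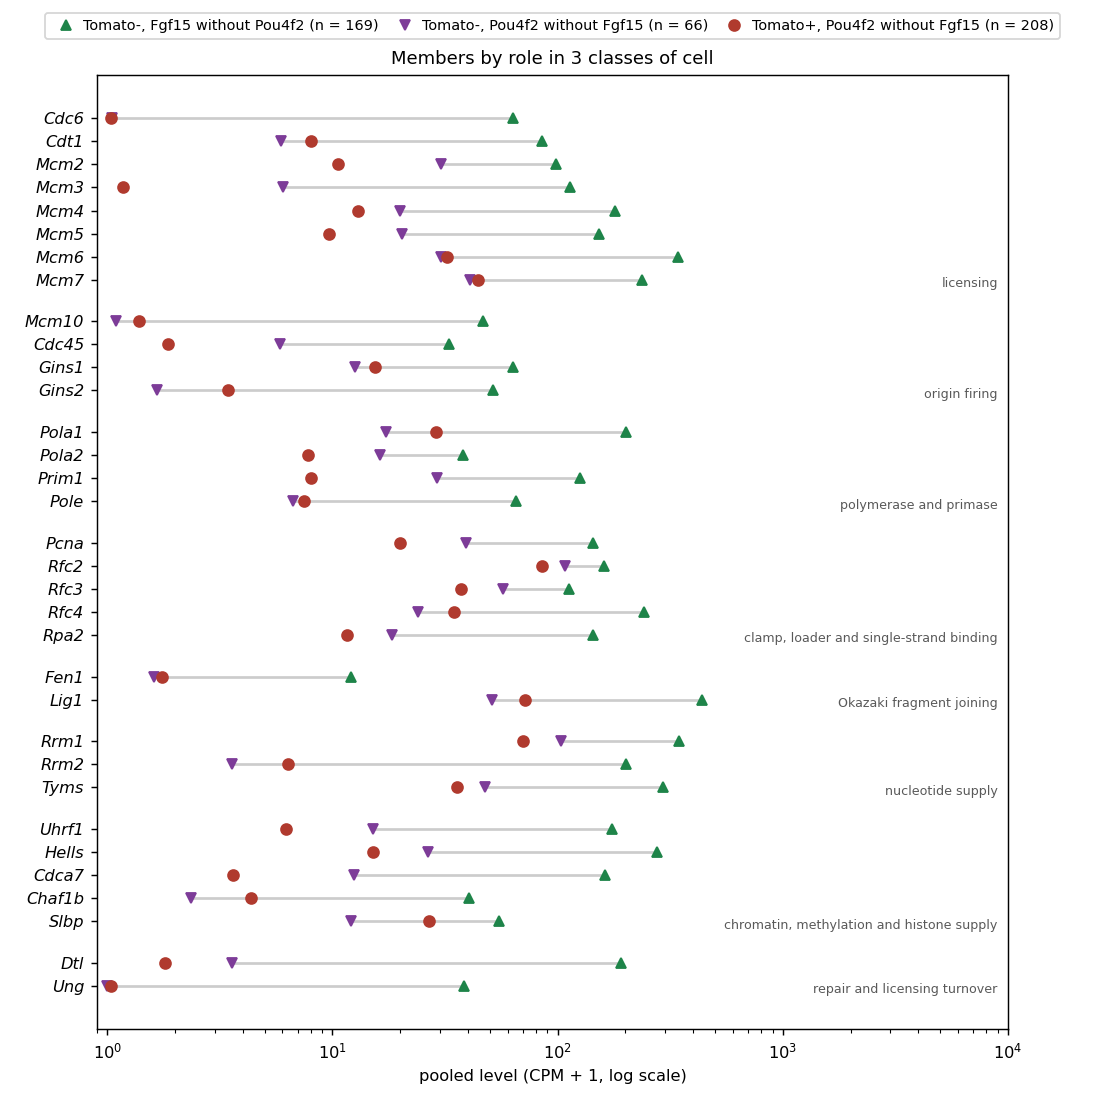
Pooled level of each member (horizontal axis, CPM + 1, log scale) grouped by role, in Fgf15-positive Tomato- cells without Pou4f2, Pou4f2-positive Tomato- cells without Fgf15 and Pou4f2-positive Tomato+ cells without Fgf15. Grey lines join the Tomato- classes; all 33 members are higher in the Fgf15 cells, by the least for Rfc2.

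Replication genes outside the 33 were read from a list of 69, of which 66 were tested in this contrast. Of these, 47 were at least 2-fold higher in the Fgf15 cells, beside 13.5% of all tested genes, and 0 were lower, beside 10.5%. With 50 CPM added in place of 10, the number higher was 18, and the share of all tested genes was not recomputed. The median log2 ratio over the 69 was 1.38. The highest ratios were those of Atad2 (3.52), an E2F coactivator, Gmnn (3.18), the inhibitor of Cdt1, Asf1b (2.98), a histone chaperone, Clspn (2.93), a checkpoint mediator, and Chek1 (2.83), a checkpoint kinase. Atad2 stood at 181.4 CPM in Fgf15 and 6.65 CPM in Pou4f2 cells. Gmnn stood at 158.4 and 8.57 CPM. Among the 66 tested, the lowest ratios were those of Orc4 (-0.73) and Gins3 (-0.17), followed by Tfdp1 (0.26), Rfc1 (0.28) and Rbbp4 (0.37). Orc4, a subunit of the origin recognition complex, stood at 47.6 CPM in Fgf15 and 85.2 CPM in Pou4f2 cells. The ratio of Gins3, a GINS subunit, ran from -0.54 to 0.59 when 1 title number was left out at a time. All 21 G2 and mitosis genes were at least 2-fold higher in the Fgf15 cells.

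Atoh7-positive Tomato- cells had higher pooled sums than Pou4f2-positive cells. The 37 Atoh7-positive cells without Pou4f2 summed to 4142 CPM and the 84 Pou4f2-positive cells without Atoh7 to 1168 CPM, a log2 ratio of 1.82. Both classes include Fgf15-positive cells, 22 of the 37 and 23 of the 84. The log2 ratio was above 0 in 9 of 10 title numbers, with a standard deviation of 1.51. Over the other settings it ran from 0.88 to 2.42. Of 32 tested members, 26 were at least 2-fold higher in the Atoh7 cells, beside 13.1% of all tested genes, and 0 were lower, beside 17.8%. Rrm2 had the largest ratio, with 365.9 and 35.9 CPM (3.03). The 170 Fgf15-positive cells without Atoh7 summed to 4541 CPM and the 20 Atoh7-positive cells without Fgf15 to 3093 CPM. A single cell had a median sum of 3291 CPM in the first class and 990 CPM in the second, in which the highest cell reached 16243 CPM. This log2 ratio of 0.55 was smaller than its standard deviation of 1.82 over 9 title numbers, and it was above 0 in 6 of them. Here 12 of 33 members were at least 2-fold higher in the Fgf15 cells, beside 19.5% of all tested genes, and 0 were lower, beside 8.49%. Chromatin genes gave 4 of the 12, led by Uhrf1 (145.6 and 41.99 CPM, log2 ratio 1.58), which recognises newly copied methylated DNA. Nucleotide supply gave 0 of its 3, with Rrm2 at 157.8 and 247.5 CPM and Tyms, thymidylate synthase, at 254.4 and 267.98 CPM. Cells with at least 5 Rrm2 counts made up 40% of the Fgf15 and 25% of the 20 Atoh7 cells, the opposite order to its level. For Tyms these shares were 38.8% and 50%. With 1 title number left out at a time the log2 ratio ran from -0.84 to -0.17 for Rrm2 and from -0.25 to 0.72 for Tyms.

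Pou4f2-positive cells of both labels had low sums. The Tomato+ cells positive for Pou4f2 without Fgf15, 63.6% of those kept, summed to 595 CPM and the 66 such Tomato- cells to 740.2 CPM, a log2 ratio of -0.31. Title numbers ran from 458 to 766 CPM in the first class and from 413 to 1013 CPM in the second, and they overlapped. Of 22 tested members, 0 were at least 2-fold higher, beside 3% of tested genes, and 2 were lower in Tomato+ cells, Mcm2 (9.60 and 29.4 CPM) and Prim1 (7.05 and 28.2 CPM), beside 2.61% of tested genes called lower. The G2 and mitosis list summed to 60.5 CPM in these Tomato+ and 477 CPM in these Tomato- cells, and 8 of its 12 tested genes were at least 2-fold lower in Tomato+ cells. The part of these genes in the values was not tested. Fgf15-positive cells made up 2.75% (9 cells) of the kept Tomato+ and 54.1% of the kept Tomato- cells. Cells positive for none of the 3 markers had a pooled sum of 639.4 CPM in Tomato+ (33.3% of kept cells) and 1363 CPM in Tomato- (23.5%).

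Sums of at least 2000 CPM were found in 6 of the kept Tomato+ cells, or 1.83% (0.68 to 3.95). The 2 with the most members detected came from title number 5 and were positive for Fgf15. They held 26 and 17 members at 5 counts or more, with sums of 4928 and 2817 CPM. The first was also positive for Pou4f2 and held 10 of 10 ganglion cell and 9 of 10 progenitor markers, and the second was also positive for Atoh7 and held 6 and 8 of them. No doublet caller was run on these cells. The highest sum, 5452 CPM with 13 members, was in a cell of title number 8 that held 3 of 8 microglia markers and was negative for Fgf15, Atoh7 and Pou4f2. In the other 3 cells, all positive for Pou4f2, 1 member took 97.9% (Cdt1), 41.1% (Slbp) or 30.6% (Mcm7) of the sum.

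Over all kept Tomato- cells the per-cell sum and Top2a had a Spearman coefficient of 0.50 and a Pearson coefficient of 0.48 on the log2 scale. Within title numbers the Spearman coefficient ran from 0.24 to 0.68 and was above 0 in 10 of 10. In the Fgf15-positive cells it was 0.13, ran from -0.19 to 0.52 and was above 0 in 6 of 10 title numbers. With positivity at 1 count it was 0.42, and in Fgf15-positive cells negative for both other markers it was -0.037. It was 0.48 in 46 Atoh7-positive cells, 0.56 in 85 cells positive for none and -0.02 in 61 Pou4f2-only cells. In Tomato+ cells, of which 5.2% had at least 5 Top2a counts, it was 0.09. These coefficients describe cells of 1 pool, and both measures are divided by the same total count. In Fgf15-positive Tomato- cells the sum had a coefficient of -0.34 with the mitochondrial percentage and -0.05 with the total count. Of those cells, 24 had a sum of at least 2000 CPM with Top2a under 100 CPM, and 24 had a smaller sum with Top2a at 1000 CPM or more.

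**Figure D4:**
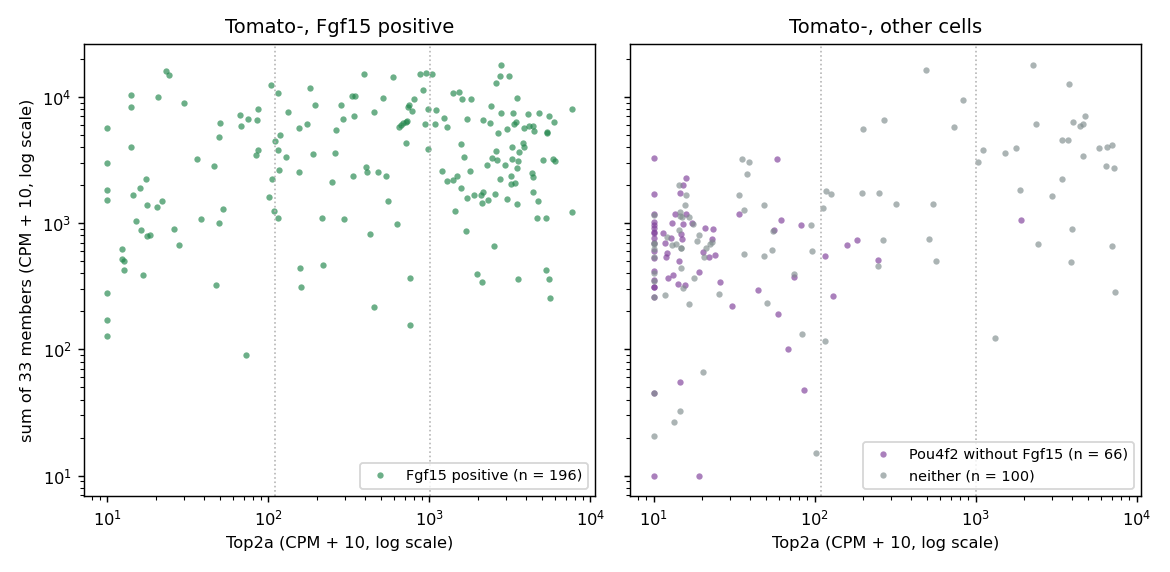
Sum of the 33 members (vertical axis, CPM + 10, log scale) against Top2a (horizontal axis, CPM + 10, log scale) in Tomato- cells, Fgf15-positive on the left and other cells on the right. Each point is a cell and dotted lines mark Top2a at 100 and 1000 CPM; Fgf15-positive cells with sums of at least 2000 CPM occur at every Top2a level, 24 of 52 under 100 CPM, 45 of 57 from 100 to 1000 CPM and 63 of 87 above, and Pou4f2 cells lie mostly at low values of both.

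The members differed in how they varied with Top2a. Fgf15-positive Tomato- cells were divided at 100 and 1000 CPM of Top2a into 52 low, 57 middle and 87 high cells. The summed level was 2976 CPM in the low, 5742 CPM in the middle and 4606 CPM in the high cells. Between high and low cells the log2 ratio of the sum was 0.63 and was above 0 in 9 of 10 title numbers, less than its standard deviation of 0.92. Between middle and low cells the ratio was 0.95 and above 0 in 9 of 10 title numbers, less than its standard deviation of 1.05. No such spread was computed between high and middle cells, whose log2 ratio was -0.32. Title numbers overlapped: sums ran from 510 to 5221 CPM in low, 2001 to 10716 in middle and 2996 to 6458 in high cells. Of the 33 members, 11 were at least 2-fold higher in the high than in the low cells, beside 11.4% of tested genes, and 0 were lower, beside 12.5%. Those counts depended on the settings: 4 were higher with 50 CPM added, 19 with positivity at 1 count, and 7 were higher and 4 lower with cells positive for Fgf15 only. The shares of all tested genes were not recomputed under these settings, so these counts cannot be set against them. In the middle cells 15 of 32 tested members were at least 2-fold above the low cells, beside 10.4%, and 0 were below them by as much, beside 10.1%. By level, 24 members were highest in the middle cells, 7 in the high cells and 2 in the low cells. How all tested genes divide over these levels was not counted, so no share stands beside these counts or those by role. Ganglion cell markers moved with these levels and summed to 8953 CPM in the low, 5389 CPM in the middle and 864 CPM in the high cells. The part of these markers in the differences was not tested.

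All 8 licensing genes were highest in the middle cells, and the role summed to 968 CPM in the low, 1755 CPM in the middle and 873 CPM in the high cells. Mcm6 was at 279.8 CPM in low, 524 CPM in middle and 191.6 CPM in high cells. Leaving out each title number in turn kept Mcm6 between 457 and 575 CPM in the middle and between 169.3 and 206.4 CPM in the high cells. Mcm5 was at 142.9, 223.2 and 67.04 CPM and Cdt1 at 69.6, 131.9 and 44.9 CPM. Between high and middle cells 5 of 33 members were at least 2-fold lower, beside 9.88% of tested genes, and 0 were higher, beside 9.34%. The count of lower members is small and not far above the share of all genes. It was not recomputed under other settings. The 5 were Mcm5 (log2 ratio -1.60), Mcm6 (-1.41), Cdt1 (-1.37), Mcm4 (-1.06) and Ung (-1.58). Ung was at 28.6, 63 and 14.5 CPM. Mcm6, Mcm5 and Cdt1 are among the members with E2F-type letters in the windows searched, Ung had a window without them and Mcm4 is not in the promoter table. Of the 7 licensing members with a window, 6 hold these letters, so this overlaps with role. A relation of the letters to these ratios was not tested. Between high and low cells the ratio of Mcm6 was -0.52, and with positivity at 1 count it was 0.55.

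Nucleotide supply and 2 origin firing genes had another order, with the highest level in the high cells. Rrm2 was at 56.5 CPM in low, 186.9 CPM in middle and 280.2 CPM in high cells, and 19.2%, 38.6% and 58.6% of the cells held at least 5 counts. Tyms was at 114.5, 231.2 and 397.3 CPM and Rrm1 at 191.3, 310.9 and 405 CPM. All 3 were at least 2-fold higher in the high than in the low cells, with log2 ratios of 2.13, 1.71 and 1.04. Cdc45 was at 5.45, 25.9 and 59.5 CPM and Mcm10 at 6.25, 46.1 and 59.1 CPM. Rfc3 and Fen1 were also highest in the high cells. Pole, the catalytic subunit of polymerase epsilon, was at 8.14, 83.9 and 71.8 CPM, a ratio of 2.17 between high and low cells. Pcna was at 109.5, 138.6 and 137.8 CPM. The 2 members highest in the low cells were Rfc2 (170.7, 138.6 and 138.1 CPM) and Cdca7 (163.3, 155.7 and 119.2 CPM). Chaf1b, a subunit of the histone chaperone CAF-1, was at 36.6, 37.2 and 36.3 CPM.

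**Figure D5:**
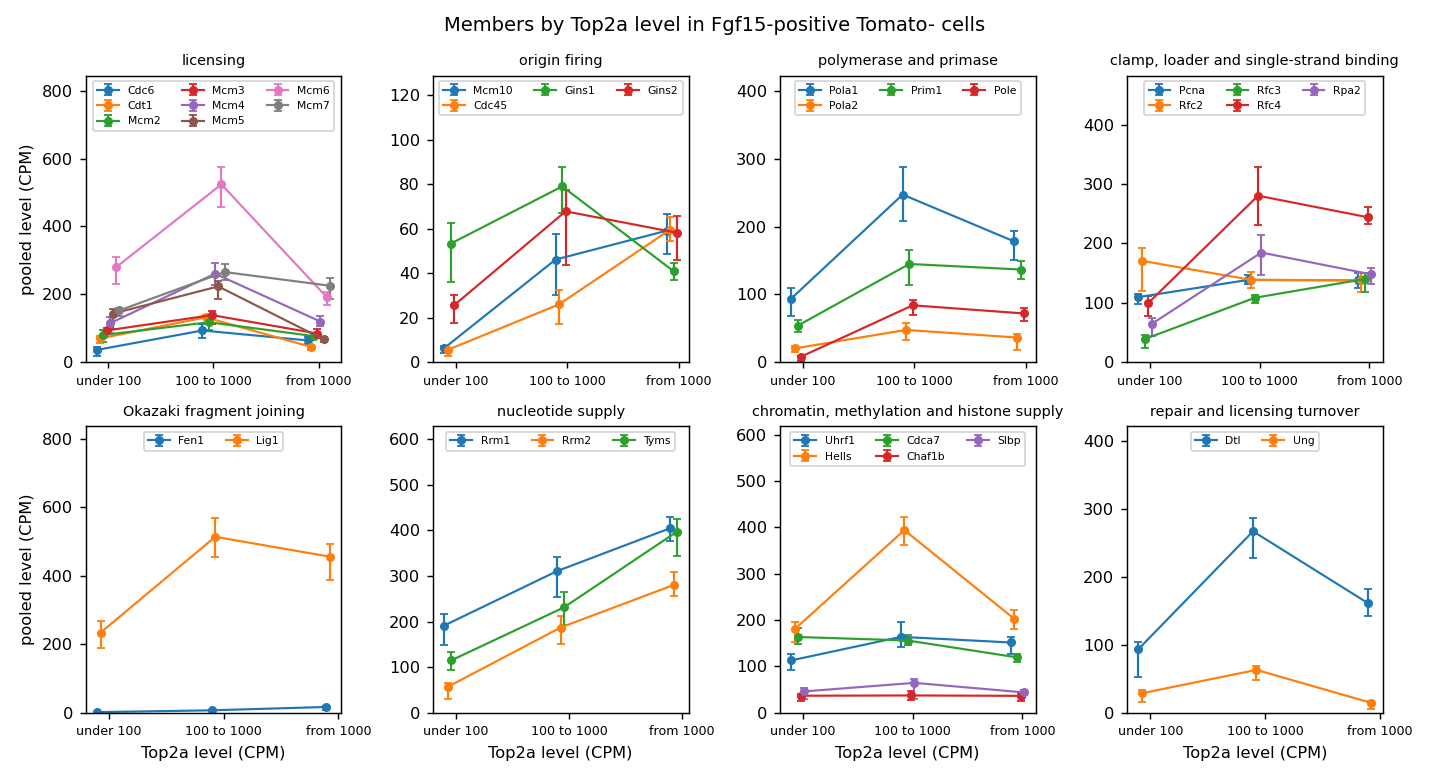
Pooled level of each member (vertical axes, CPM, from 0) in Fgf15-positive Tomato- cells with Top2a under 100 CPM (52 cells), from 100 to 1000 CPM (57 cells) and from 1000 CPM (87 cells), 1 panel per role. Bars span the values with each title number left out in turn; the licensing genes peak in the middle level, and Rrm1, Rrm2 and Tyms are highest in the last.

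The members varied together from cell to cell. The 27 members that reached 5 counts in 10% or more of Tomato- cells were each compared with the sum of the other 32. The Spearman coefficients ran from 0.12 to 0.51 with a median of 0.35, and the median over 6922 other genes was -0.05. The 10 other genes most like the sum over the kept Tomato- cells were Dek (0.65), Ccnd1 (0.65), Mdk (0.63), H2afz (0.55), Fgf15 (0.54), H2afv (0.54), Zfp36l1 (0.53), Hes1 (0.53), 2810417H13Rik (0.52) and Hmgn2 (0.51). Dek encodes a chromatin protein, Ccnd1 cyclin D1, H2afz and H2afv histone variants and Hes1 a Notch target. RefSeq lists 2810417H13Rik under the symbol Pclaf, a protein that binds the clamp. In the Fgf15-positive cells alone Dek (0.53), Ccnd1 (0.53) and Mdk (0.51) were again the most alike. The lowest coefficients over all Tomato- cells were those of Dpysl3 (-0.63), Stmn2 (-0.61), Crmp1 (-0.60) and Tubb3 (-0.60), genes of the neuronal cytoskeleton and of axon growth.

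Some counts cannot be assigned to a member with certainty. In the GENCODE annotation 13 members overlap another gene, 10 of them on the other strand, and whether counting used strand is not given in the sources used here. Mcm7 overlaps Cops6 and Ap4m1, Lig1 overlaps Zswim9, Rfc4 overlaps Eif4a2 and Cdc45 overlaps Ufd1. Pcna and Tyms have named pseudogenes.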

How the data were processed

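The data are counts per gene and cell for 800 cells, deposited by the authors as whole numbers without normalization. Per the labels' protocols, the libraries were made with SmartSeq2, while the series title names the C1 system. The submitters' processing notes name Seurat 2.3, R 3.4.4 and the build mm10. The aligner, the counter and the annotation are not given in the sources used here. Column names end in "umi", and whether a count is a molecule or a read is not stated, so intervals cover counting error only. The table had 801 columns of cells, and the 1 without a label was left aside. No cell had counts identical to another's (0 pairs). Cell barcodes are not among the files used, so shared barcodes were not counted.

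Groups came from the genotype label. Cells with over 20% mitochondrial counts were left out (73 Tomato+, 38 Tomato-), and no doublet caller was run. Counts were summed over the cells of a class and divided by the class total (CPM). Python 3.11.15 with numpy 2.4.6, pandas 2.3.3 and scipy 1.17.1 was used, with scaling factors from edgeR 4.0.16 and DESeq2 1.42.0 in R 4.3.3 as alternatives. Scripts were tested on simulated data. No test was run, since each group is 1 pool.

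The members, gene lists and comparisons were chosen with earlier results of these data known. Members given in full are, for each role, the one with the highest level and the one with the largest ratio, with Pcna and Mcm5. Other genes follow a rank rule: of the other replication genes the 5 highest and 5 lowest ratios, and the 10 genes most like the sum, passing over predicted genes. Further members were named after their values were seen.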

Additional observations from a re-analysis of the deposited data

Results flagged for a closer look

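Title numbers were compared within each label for the sum of the 33 members and for the sums of the 8 roles, 18 sets of 10 values, and 2 values stood apart from the rest of their set by the gap to the nearest value. For independent sets of normally distributed values the rule flags about 1 in 20. The role sums are parts of the sum of the 33 and some lie near 0, so that rate may not hold here. In Tomato+ title number 5 the origin firing genes summed to 59.3 CPM, where the next highest title number had 30.4 CPM and the median was 14.02 CPM. In the same title number the repair and licensing turnover genes summed to 14.8 CPM, where the next highest had 4.31 CPM and the median was 0.27 CPM. Title number 5 held both Fgf15-positive Tomato+ cells with sums of at least 2000 CPM. The part of these cells in the values was not tested.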

How the results depend on the processing

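Apart from leaving out single title numbers, 16 recomputed values moved by more than the spread over title numbers (or, for counts of genes, by more than 1.5 times) and 1 changed sign. With a pseudocount of 50 CPM, members at least 2-fold lower in Tomato+ numbered 16, other replication genes higher in Fgf15-positive cells 18 and members higher at high Top2a 4. With positivity at 1 count, the log2 ratio of the sum between Fgf15-positive and Pou4f2-positive cells was 2.14, the coefficient with Top2a in Fgf15-positive cells 0.42 and the members higher at high Top2a 19. As a mean over members of log2(CPM + 10), the label ratio was -1.78. With the mean of per-cell CPM, 7 members were higher and 2 lower at high Top2a. The count of members lower at high Top2a, 0 as reported, was 1 after thinning, 1 with a pseudocount of 1 CPM, 1 with positivity at 20 counts and 1 at 50 CPM. A pair of settings chosen after seeing the data concern mixed cells. Without the 15 Tomato+ and 6 Tomato- cells that held 2 or more microglia, endothelial or erythroid markers, that count was 1. With cells positive for 1 of the 3 marker genes only, it was 4, the members higher numbered 7 and the coefficient with Top2a in Fgf15-positive cells was -0.037. Leaving out 1 title number at a time gave 0 to 2 members lower at high Top2a and moved none of the other results past these limits. For ratios and coefficients the limit is the spread between single title numbers. Dropping 1 title number from a pooled value can seldom pass it, so this does not measure how stable those results are. The causes were not tested. For counts of genes, the share of all tested genes was not recomputed under any changed setting. TMM and median-of-ratios factors shifted the label comparison by 0.12 and 0.14 on the log2 scale. Both labels share the row numbers of the titles, 40 in all. With the row number as a block, a setting also chosen after seeing the data, the mean label ratio within rows was -2.21 (SD 0.62), below 0 in 40 of 40 rows, and 26 members were lower. Same-numbered rows did not deviate together (correlations of -0.073 to 0.043 across genes, 2 of 40 rows closest to their own number). Fewer than 5 counts per cell cannot separate absence from missed RNA for members such as Fen1 and Ung.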

Other observations

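Replication genes outside the 33 were also read by label and by Top2a level. Of 62 tested in the comparison of labels, 27 were at least 2-fold lower in Tomato+ cells, beside 6.92% of all tested genes, and 0 were higher, beside 2.95%, with a median log2 ratio of -0.87 over the 69. In Pou4f2-positive cells without Fgf15, 47 were tested, and 1 was at least 2-fold higher and 1 lower in Tomato+ cells, beside 3% and 2.61% of all tested genes. Between high and low Top2a in Fgf15-positive Tomato- cells, 24 of 66 tested were at least 2-fold higher, beside 11.4% of all tested genes, and 1 was lower, beside 12.5%. The 21 G2 and mitosis genes, Top2a among them, gave 21 higher in that comparison, which the choice of cells by Top2a fixes in part.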
